A study of Homo sapiens with 3 samples.

Results

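Integrins are the receptors by which cells hold on to the extracellular matrix, and focal adhesions are the protein plaques that tie them to actin. Transcripts of 42 genes for integrin subunits and focal adhesion proteins were followed in T24 cells, a human bladder carcinoma line. The genes were listed by symbol for what their proteins do, with no rule on their values, although earlier results of these data were known at the time. They comprise 11 alpha subunits, 7 beta subunits and 24 adaptors, kinases, actin linkers and membrane partners. They are 42 of the 58381 genes of the count table, and all 42 had at least 10 counts in at least 1 library of each comparison.

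The study asked which genes respond to irradiation and to loss of HDAC6, a mainly cytoplasmic deacetylase that acts on tubulin. RNA-seq was done on bulk cells in 3 conditions with 1 library each. Ctrl cells had neither the HDAC6 shRNA nor irradiation, RT cells received 10 Gy from a caesium gamma source, and RT + shHDAC6 cells received the same irradiation and carried an shRNA against HDAC6. The shRNA was delivered by lentivirus and selected with puromycin, and the protocols also list a pLKO.1 control vector, whereas the study's results describe the comparator as parental cells. The sources do not say how long after irradiation the RNA was taken. Because there was 1 library per condition, differences below were not checked in replicates, and p-values are not given.

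An integrin is a pair of 1 alpha and 1 beta subunit, and the pair decides the ligand: ITGA6 pairs with ITGB1 or ITGB4 to bind laminin, ITGA2 with ITGB1 to bind collagen, and ITGA5 with ITGB1 or ITGAV with several beta subunits to bind RGD-bearing proteins such as fibronectin. Talin and kindlin bind the beta tail and switch the receptor on, after which paxillin, FAK, vinculin, filamin and their partners join it to actin and to signalling. In urothelium, the laminin receptor made of ITGA6 and ITGB4 anchors the basal cells through hemidesmosomes.

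The libraries held 41811165 (Ctrl), 35959265 (RT) and 35424086 (RT + shHDAC6) counts. Levels are given as CPM, counts per 1000000 counts of the library, with library sizes scaled by the trimmed mean of M-values (TMM). A count of 0 allows up to 3 counts, which equal 0.0662, 0.0894 and 0.0857 CPM in that order. A gene was called higher or lower when its log2 ratio was at least 1.5-fold in size and its 95% counting interval (exact Clopper-Pearson) excluded 0. Intervals cover counting error only, since each condition has 1 library. They take every read as independent. Where no molecular identifiers are used, several reads can stem from 1 molecule, and the intervals may then be too narrow. In bulk RNA, fewer cells of a kind and less RNA per cell cannot be told apart. Scaling by library totals alone would shift every log2 ratio by -0.22 (RT to Ctrl), 0.08 (RT + shHDAC6 to RT) and -0.13 (RT + shHDAC6 to Ctrl), and the members whose calls it changes are named below.

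HDAC6 (ENSG00000094631), the targeted gene, had 3098 counts (Ctrl), 2383 (RT) and 2170 (RT + shHDAC6), or 68.3, 71.0 and 62.0 CPM. Its level in RT + shHDAC6 was 0.872 times that in RT, on the log2 scale -0.20 (interval -0.28 to -0.11), which is outside counting error and under 1.5-fold. In that comparison the median was -0.17 for the 42 genes and -0.003 for all tested genes. At 0.872 times the RT level, the HDAC6 reads of this library show little of the knockdown. The paper reports less HDAC6 mRNA by qPCR and less protein by Western blot in its knockdown cells. The T24 label was set beside cell type markers. Of 13 epithelial and urothelial markers, 10 had at least 10 counts in Ctrl and 9 in each irradiated library. The uroplakins, which define differentiated urothelium, had few counts, at most 18 (UPK1A in Ctrl). Of the markers tested in RT against Ctrl, 1 was called higher (KRT18) and 2 lower, KRT19 and UPK1A (18 to 2 counts). In RT + shHDAC6 against RT, 0 were called higher and 3 lower. The 3 were KRT7, from 115 to 17.1 CPM, GATA3, from 42.4 to 20.2 CPM, and PPARG, from 19.4 to 10.1 CPM. The other tested markers of this list all lay above 0, at log2 ratios from 0.05 to 0.51, and the list median was 0.235. Of the 3 mesenchymal markers, VIM stood at 2684, 2211 and 2737 CPM and CDH2 at 149.7, 257 and 125 CPM, the latter called higher from Ctrl to RT and lower from RT to RT + shHDAC6. The part of these shifts in the values of the 42 genes was not tested.

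The 42 genes summed to 1.36%, 1.68% and 1.47% of all counts in the order Ctrl, RT, RT + shHDAC6. The 18 integrin subunits accounted for 0.662%, 0.892% and 0.757%, and the 24 other genes for 0.699%, 0.786% and 0.709%, so both groups took their largest share in RT. Per kilobase of exon, levels ran over several orders of magnitude. ITGB3 was lowest in Ctrl and RT + shHDAC6 and level with ITGA4 in RT (0.0873 and 0.0867 CPM per kb), and FLNA was highest, at 230.5, 374 and 269 CPM per kb. FLNA encodes filamin A, which crosslinks actin and binds integrin tails. These ranks rest on the exon length used. Per kilobase of its longest transcript, ITGB1 stood at 397.5, 668 and 570 CPM per kb in Ctrl, RT and RT + shHDAC6, and FLNA was not read by that length.

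**Figure D1:**
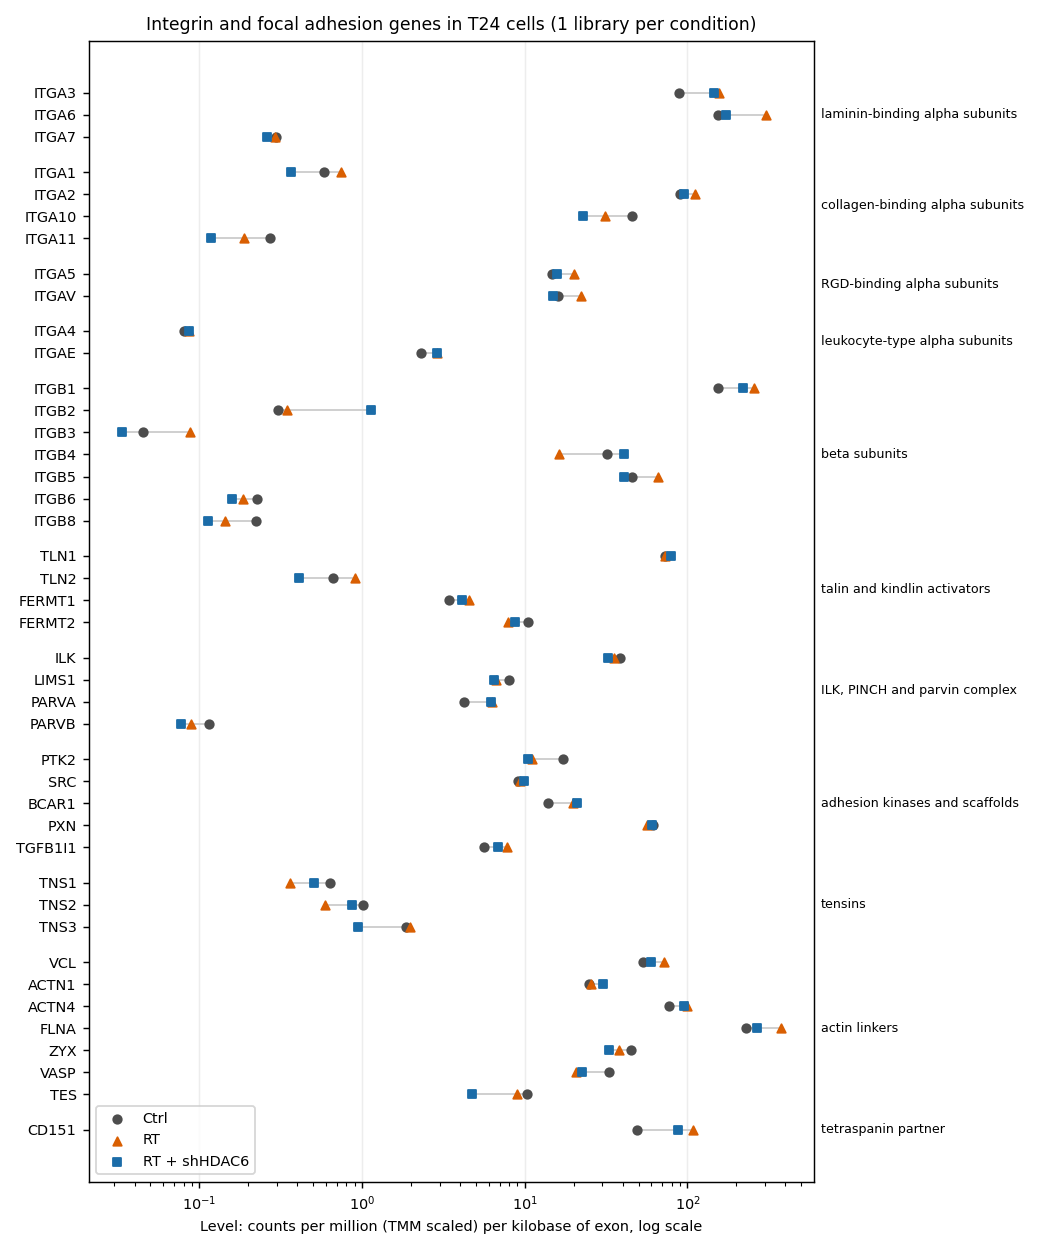
Level of each of the 42 genes in the 3 libraries, in CPM (TMM scaled) per kilobase of exon on a log axis, grouped by role. Circles are Ctrl, triangles RT and squares RT + shHDAC6, each 1 library. FLNA, ITGB1 and ITGA6 lie to the right, and ITGB3, ITGA4 and PARVB lie at or under 0.12 CPM per kb.

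Comparing RT with Ctrl, 6 of the 42 genes (14.3%) were called higher and 6 (14.3%) lower, where 12.2% and 13.0% of all 20267 tested genes were. The members' shares were thus near the background. Their median log2 ratio was 0.09, against -0.06 for all tested genes. With library totals the split was 3 higher and 9 lower, with DESeq2's factors 6 and 4, and with upper quartile factors 5 and 8. The genes called higher were ITGA3, ITGA6, ITGB1, PARVA, FLNA and CD151. Those called lower were ITGB4, ITGB8, PTK2, TNS1, TNS2 and VASP. All 6 called higher lay among the 28 members with a mean of 1000 counts or more, where 1307 of 7122 tested genes were called higher. Of the 6 called lower, 3 lay among those 28, where 319 of 7122 were called lower. The other 3 lay among the 14 members with fewer counts, where 2309 of 13145 were called lower and 1170 higher.

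Comparing RT + shHDAC6 with RT, 2 of the 42 genes (4.8%) were called higher and 8 (19.0%) lower, where 5.09% and 6.58% of all 19013 tested genes were. The share called lower was above that background and the share called higher was close to it. The median log2 ratio was -0.17, against -0.003 for all tested genes, and 31 of the 42 ratios were below 0. ITGB2 and ITGB4 were called higher. ITGA6, ITGA1, ITGA11, ITGB3, ITGB5, TLN2, TNS3 and TES were called lower. Of the 8, 6 lay among the 15 members with a mean under 1000 counts, where 1044 of 12242 tested genes were called lower, and 2 among the 27 members with more, where 207 of 6771 were.

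Comparing RT + shHDAC6 with Ctrl, 4 members (9.5%) were called higher and 8 (19.0%) lower, beside 11.3% and 13.8% of all 20374 tested genes. With library totals the split was 2 higher and 9 lower. ITGA3, ITGB2, BCAR1 and CD151 were higher and ITGA1, ITGA10, ITGA11, ITGB8, TLN2, PTK2, TNS3 and TES lower. The 3 comparisons share libraries, since RT enters the first and the second, so each gene's ratios are given side by side and no agreement between comparisons is drawn from them.

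**Figure D2:**
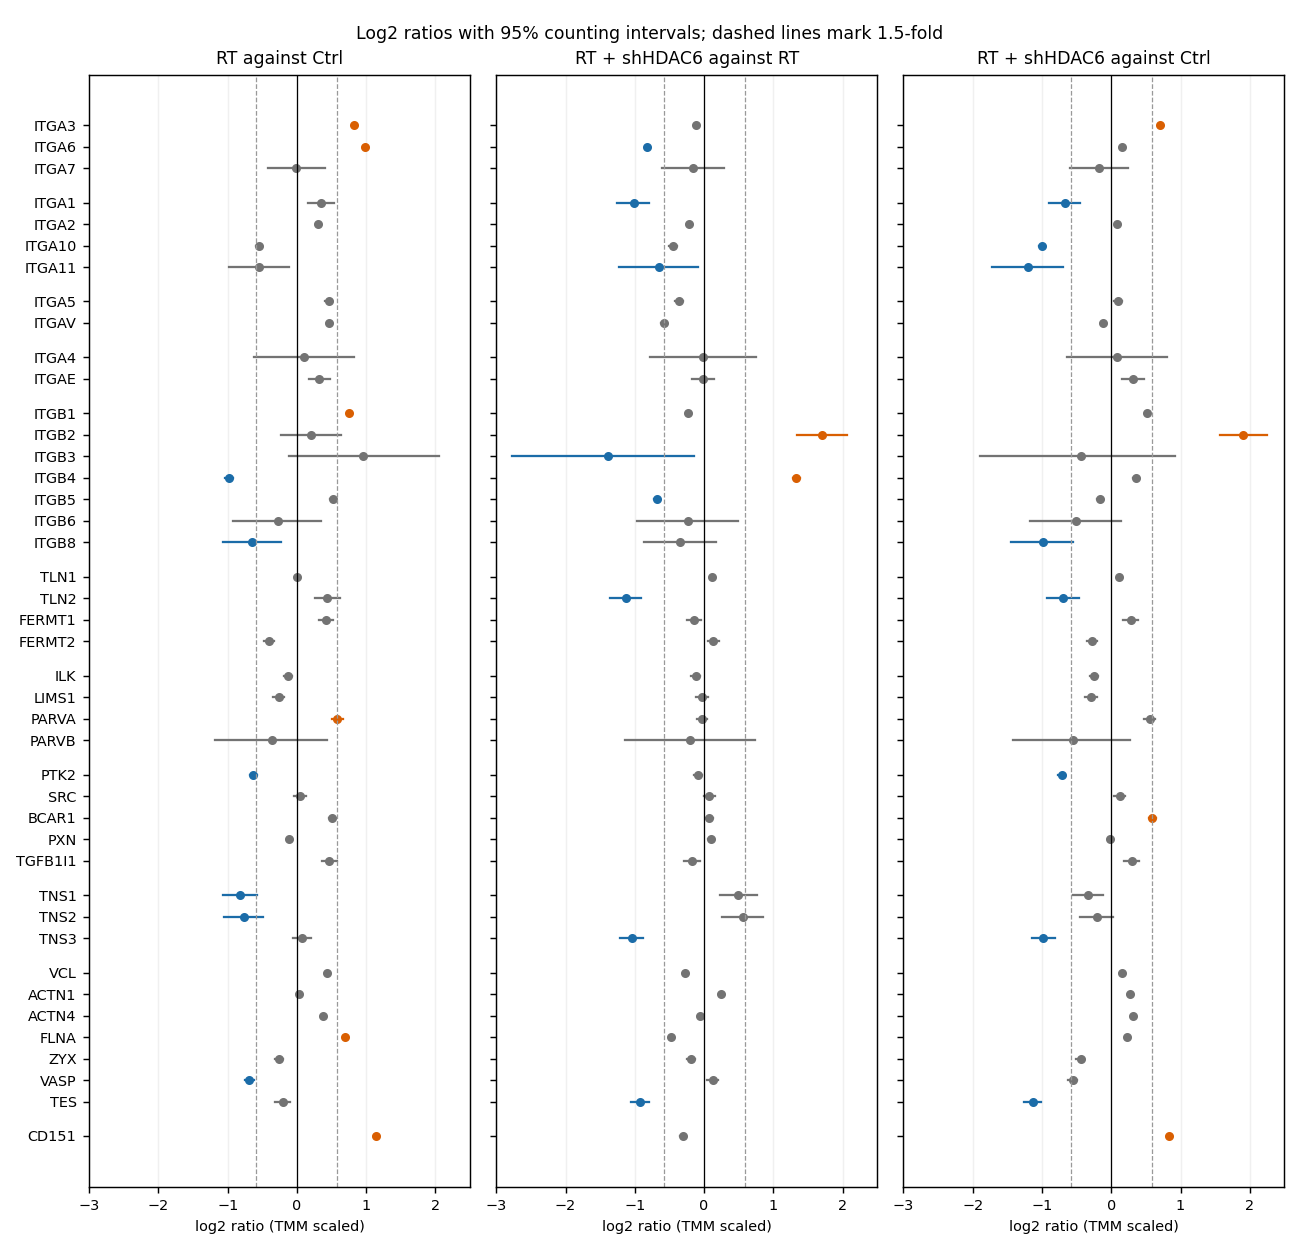
Log2 ratio of each of the 42 genes in the 3 comparisons (TMM scaled), with 95% counting intervals as bars and dashed lines at 1.5-fold. Orange points were called higher, blue points lower and grey points neither, and ITGB4 is blue in the first panel and orange in the second. With library totals the calls of ITGB1, PARVA and FLNA in the first panel, ITGA11 in the second and ITGA3 and BCAR1 in the third are lost.

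**Figure D3:**
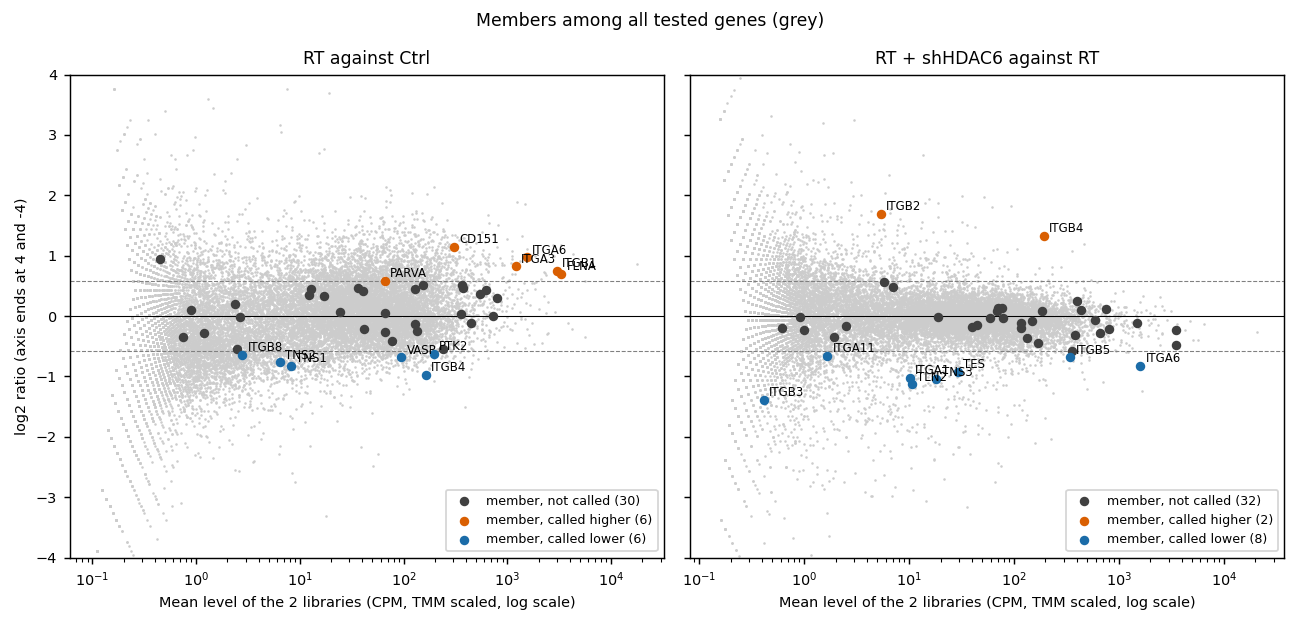
Log2 ratio against the mean level of the 2 libraries compared (CPM, log axis) for all tested genes in grey and the 42 genes in colour, for RT with Ctrl (left) and RT + shHDAC6 with RT (right). In the first panel all 6 genes called higher have a mean of 1000 counts or more, where 1307 of 7122 tested genes were called higher. In the second panel 6 of the 8 called lower have a mean under 1000 counts. The vertical axis ends at 4 and -4.

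RefSeq start sites (GRCh38.p14) gave 61 promoter windows for 32 of the genes, each of 250 bases before and 50 after the start. The windows of ITGA6, ITGB1 and FLNA are printed because these abundant genes were called higher in RT, and that of TES because it fell in RT + shHDAC6 and holds 2 of the motifs searched. ITGA6, ITGB1 and TES each have 2 windows, of which 1 is printed, and the TES window was chosen after the search. Capitals mark matches to GGAATG (the TEAD motif, either strand) or to the CArG box (the SRF motif), and the third motif searched was TGANTCA (AP-1, either strand). The ITGA6 window, chr2:172427086-172427385 on the plus strand, holds none of them. The ITGB1 window is chr10:32958181-32958480 on the minus strand, FLNA's is chrX:154374585-154374884 on the minus strand, and that of TES is chr7:116222703-116223002 on the plus strand. All are written 5′ to 3′ along the gene.
ITGA6: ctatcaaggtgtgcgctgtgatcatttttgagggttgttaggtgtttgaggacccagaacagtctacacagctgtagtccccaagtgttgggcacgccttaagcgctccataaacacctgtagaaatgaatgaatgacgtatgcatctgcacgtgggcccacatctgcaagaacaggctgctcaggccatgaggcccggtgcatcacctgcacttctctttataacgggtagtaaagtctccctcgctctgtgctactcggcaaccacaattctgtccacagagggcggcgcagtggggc
ITGB1: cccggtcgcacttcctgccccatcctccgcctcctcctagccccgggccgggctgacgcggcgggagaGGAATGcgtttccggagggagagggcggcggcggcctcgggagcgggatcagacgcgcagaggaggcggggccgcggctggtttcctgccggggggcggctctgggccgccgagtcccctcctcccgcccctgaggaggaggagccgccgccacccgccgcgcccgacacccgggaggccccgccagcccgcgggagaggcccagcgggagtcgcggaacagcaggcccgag
FLNA: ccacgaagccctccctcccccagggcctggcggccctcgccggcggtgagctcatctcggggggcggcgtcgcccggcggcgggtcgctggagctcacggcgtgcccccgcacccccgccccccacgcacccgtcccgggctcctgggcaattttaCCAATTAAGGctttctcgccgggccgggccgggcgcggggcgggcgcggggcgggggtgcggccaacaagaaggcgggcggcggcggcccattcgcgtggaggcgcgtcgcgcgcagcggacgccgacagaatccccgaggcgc
TES: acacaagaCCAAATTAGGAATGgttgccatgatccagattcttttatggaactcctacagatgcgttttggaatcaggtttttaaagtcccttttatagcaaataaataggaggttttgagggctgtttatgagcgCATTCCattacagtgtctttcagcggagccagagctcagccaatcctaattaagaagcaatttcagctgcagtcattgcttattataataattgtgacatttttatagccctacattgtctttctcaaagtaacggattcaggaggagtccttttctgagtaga

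The ITGB1 match lies at -182 to -177 from the start and the FLNA CArG box at -94 to -85. In TES the CArG box at -242 to -233 overlaps a GGAATG at -234 to -229, and a further match on the other strand lies at -114 to -109. Among all members, GGAATG was in 9 of 61 windows (14.8%, against 14.0% of all 35116 windows) and TGANTCA in 4 (6.56%, against 7.71%). The CArG box was in 5 windows (8.2%, against 1.29%), those of ACTN1, FLNA, ITGB6, TES and TGFB1I1. These 5 genes had no common direction: FLNA was called higher in RT, TES was called lower in RT + shHDAC6, and the ratios of ACTN1, ITGB6 and TGFB1I1 were under 1.5-fold in every comparison. A match describes letters in the window and is no evidence of binding.

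Per kilobase of exon, the laminin-binding subunit ITGA6 had the most abundant alpha transcript in each library. ITGA3 and the collagen-binding ITGA2 were level in Ctrl by this length (88.8 and 90.0 CPM per kb). Per kilobase of the longest transcript, ITGA3 was higher there (158.8 against 90.6 CPM per kb). ITGA6 (ENSG00000091409, chromosome 2, 172427354 to 172506459) had 1034, 2033 and 1152 CPM in Ctrl, RT and RT + shHDAC6. RT stood apart, with Ctrl and RT + shHDAC6 close together. It rose 1.97-fold in RT (log2 ratio 0.98, interval 0.96 to 0.99) and fell to 0.567 times the RT level in RT + shHDAC6 (log2 ratio -0.82, interval -0.84 to -0.80), which left a log2 ratio of 0.16 against Ctrl. ITGA3 (ENSG00000005884, chromosome 17, 50055968 to 50090481), the other major laminin receptor subunit of epithelial cells, had 870, 1542 and 1422 CPM in Ctrl, RT and RT + shHDAC6. It was high in both irradiated libraries: it rose 1.77-fold in RT, and its log2 ratio against RT in RT + shHDAC6 was -0.12 (interval -0.13 to -0.10). In reads of the pair, ITGA6 took 54.3% (interval 54.0 to 54.6), 56.9% (56.6 to 57.1) and 44.8% (44.4 to 45.1) in the order Ctrl, RT, RT + shHDAC6. ITGA7, mainly a muscle laminin receptor, had 121, 89 and 83 counts and no call.

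Among collagen-binding alpha subunits, ITGA2 was the most abundant, at 711, 877 and 754 CPM, with log2 ratios of 0.30 (RT to Ctrl) and -0.22 (RT + shHDAC6 to RT), both under 1.5-fold. ITGA10, best known from cartilage, stepped down over the 3 libraries, with 286, 195 and 143 CPM in Ctrl, RT and RT + shHDAC6. Neither step passed 1.5-fold (log2 ratios -0.55 and -0.45), and the first did with library totals or upper quartile factors. Between RT + shHDAC6 and Ctrl it fell by 1.002 on the log2 scale (interval -1.05 to -0.95). ITGA1, a receptor for collagen IV, had 487, 458 and 236 counts, so RT + shHDAC6 was low. Its log2 ratio was -1.02 (interval -1.25 to -0.79) against RT and -0.67 against Ctrl. ITGA11, a fibrillar collagen receptor of fibroblasts, had 134, 68 and 45 counts, with log2 ratios of -0.54 between RT and Ctrl and -0.66 (interval -1.23 to -0.09) between RT + shHDAC6 and RT. The first ratio passed 1.5-fold with library totals or upper quartile factors, and the second no longer did with library totals. The 5 fibroblast markers summed to 242, 164 and 197 CPM in Ctrl, RT and RT + shHDAC6, and their part in the ITGA11 values was not tested.

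The RGD-binding alpha subunits were both highest in RT. ITGA5, the fibronectin receptor subunit, had 108, 148 and 116 CPM in Ctrl, RT and RT + shHDAC6, and ITGAV, which binds vitronectin and latent TGF-beta, had 311, 430 and 288 CPM. Their log2 ratios in RT against Ctrl were 0.46 and 0.47, and neither passed 1.5-fold. In RT + shHDAC6 the ITGA5 ratio against RT was -0.36 (interval -0.42 to -0.30) and the ITGAV ratio -0.58 (interval -0.62 to -0.54), just under 1.5-fold and over it with DESeq2's factors. ITGAV's share of the reads of the pair was 74.2% (interval 73.6 to 74.8), 74.4% (73.7 to 75.0) and 71.3% (70.6 to 72.1) in the order Ctrl, RT, RT + shHDAC6. The subunits known best from leukocytes were low: ITGA4 had 39, 31 and 32 counts and ITGAE 691, 640 and 663 counts, and neither was called in a comparison.

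ITGB1 and ITGB4, the alternative beta partners of ITGA6, moved in opposite directions in RT. ITGB1 (ENSG00000150093, chromosome 10, 32887273 to 33005792), the common partner of most alpha subunits, had 2232, 3753 and 3201 CPM in Ctrl, RT and RT + shHDAC6. It rose 1.68-fold in RT (log2 ratio 0.75, interval 0.74 to 0.76), a call that is lost with library totals (log2 ratio 0.53), and lay at -0.23 against RT in RT + shHDAC6. ITGB4 (ENSG00000132470, chromosome 17, 75721328 to 75757818), the hemidesmosome subunit, had 216, 109 and 276 CPM in Ctrl, RT and RT + shHDAC6. RT was low and the other libraries were within 1.5-fold of each other. ITGB4 fell by 0.98 on the log2 scale in RT (interval -1.03 to -0.92) and rose 2.52-fold from RT to RT + shHDAC6 (log2 ratio 1.33, interval 1.28 to 1.39), and both calls held under every scaling run.

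The shift between these partners does not depend on scaling between libraries, since both are read in the same library. ITGB4 took 8.81% of ITGB1 and ITGB4 reads in Ctrl (interval 8.64 to 8.98), 2.84% in RT (2.75 to 2.93) and 7.93% in RT + shHDAC6 (7.78 to 8.08). Against ITGA6, a pair chosen after its values were seen, its share was 17.2% (16.9 to 17.6), 5.11% (4.95 to 5.27) and 19.3% (19.0 to 19.7) in the order Ctrl, RT, RT + shHDAC6. Per kilobase, ITGA6 transcripts were 4.86, 18.8 and 4.23 times those of ITGB4 in Ctrl, RT and RT + shHDAC6. For other partner pairs chosen in the same way the shares moved little: ITGB1 took 72.0%, 70.9% and 69.2% of ITGA3 and ITGB1 reads, and ITGB5 took 49.0%, 49.8% and 48.0% of ITGAV and ITGB5 reads.

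ITGB5, a partner of ITGAV, had 299, 427 and 266 CPM in Ctrl, RT and RT + shHDAC6. Its ratio for RT against Ctrl was 0.51, under 1.5-fold, and in RT + shHDAC6 it fell by 0.68 from RT (interval -0.72 to -0.64). ITGB2 (ENSG00000160255, chromosome 21, 44885953 to 44931989), the beta subunit of leukocyte integrins, had 100, 85 and 288 counts. RT + shHDAC6 was high and the others alike, so that ITGB2 rose 3.24-fold over RT (log2 ratio 1.70, interval 1.34 to 2.07) and 3.73-fold over Ctrl. Its alpha partners had few counts: ITGAM 29, 21 and 51, called higher in RT + shHDAC6 than in RT (log2 ratio 1.22, interval 0.46 to 2.03), ITGAL 37, 18 and 32, and ITGAX 42, 18 and 29, neither of them called. PTPRC, the leukocyte common antigen, stood at 2.65, 1.97 and 1.63 CPM, and the 8 leukocyte markers, which include the 3 alpha partners, summed to 10.5, 7.42 and 8.57 CPM. Their part in the ITGB2 result was not tested. The remaining beta subunits were scarce. ITGB3, another partner of ITGAV, had 14, 20 and 8 counts, and its fall of 1.38 from RT to RT + shHDAC6 had an interval of -2.78 to -0.14. ITGB8 had 154, 73 and 60 counts and was called lower in RT (log2 ratio -0.64, interval -1.06 to -0.23), a call lost with DESeq2's factors. ITGB6 had 59, 36 and 32 counts and no call, and for ITGB3 33.2% and for ITGB6 16.7% of the exon length also belongs to an overlapping gene of that strand.

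Summed per kilobase, the alpha pool stood at 414, 650.5 and 470.3 CPM per kb in Ctrl, RT and RT + shHDAC6, and the beta pool at 232, 340.2 and 303. ITGA6 made up 37.4%, 46.8% and 36.7% of the alpha pool, ITGA3 21.5%, 24.2% and 30.9%, ITGA2 21.8%, 17.1% and 20.3%, and ITGA10 11.1%, 4.81% and 4.86%. ITGB1 made up 66.1%, 75.8% and 72.6% of the beta pool, ITGB5 19.8%, 19.3% and 13.5%, and ITGB4 13.8%, 4.76% and 13.5%. RT thus had the largest ITGA6 and ITGB1 shares and the smallest ITGB4 share. These shares rest on the exon length used: with the longest transcript ITGA3 (40.1%) exceeded ITGA6 (30.6%) in RT + shHDAC6, and ITGB4 took 7.27%, 2.37% and 6.89%.

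**Figure D4:**
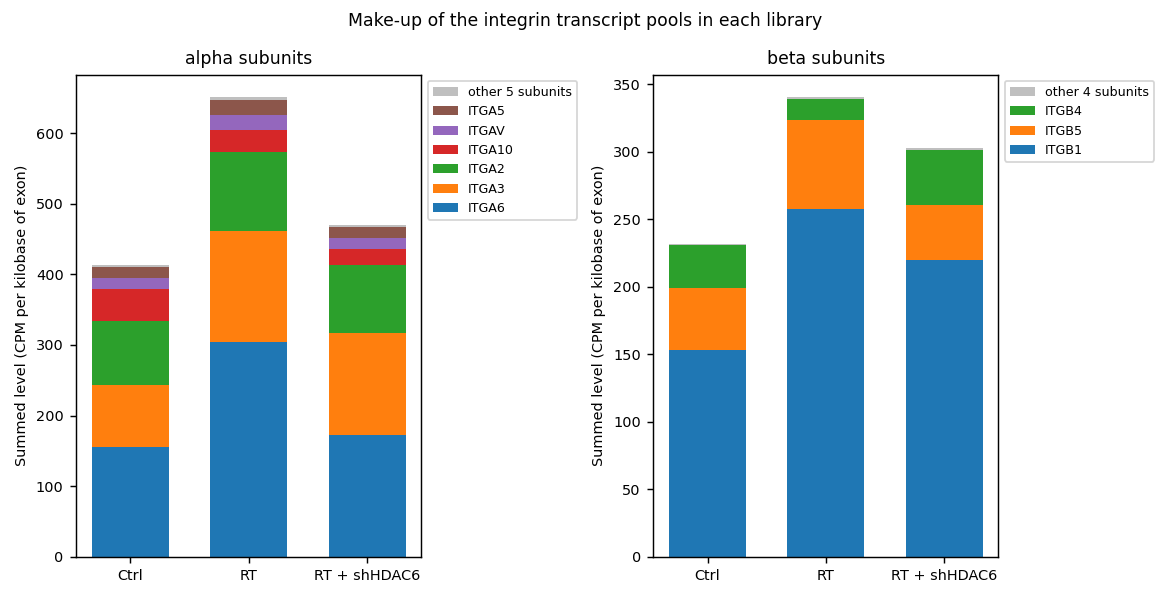
Summed level of the alpha and of the beta subunits in each library, in CPM (TMM scaled) per kilobase of exon, with bars divided by subunit. The green band of ITGB4 in the right panel is 4.76% of the pool in RT and 13.8% and 13.5% in the other libraries, and these shares are lower with the longest transcript as the length.

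The activators differed within each family. TLN1, the main talin, had 725, 725 and 787 CPM in Ctrl, RT and RT + shHDAC6, all within 1.5-fold. TLN2, its paralog, had 489, 491 and 234 counts, and fell by 1.13 on the log2 scale from RT to RT + shHDAC6 (interval -1.36 to -0.90) and by 0.69 against Ctrl. Of the talin reads, TLN2 took 1.47% (interval 1.34 to 1.60), 1.98% (1.81 to 2.16) and 0.842% (0.738 to 0.957) in the order Ctrl, RT, RT + shHDAC6. For the kindlins FERMT1 and FERMT2, ratios for RT against Ctrl were 0.42 and -0.41, each under 1.5-fold and on opposite sides of 0, and that of FERMT2 passed 1.5-fold with library totals (-0.62). FERMT2's share of their reads went from 71.7% (70.5 to 72.9) in Ctrl to 58.8% (57.2 to 60.4) in RT and 63.4% (61.9 to 64.8) in RT + shHDAC6.

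In the complex of ILK, PINCH and parvin, which links the beta tail to actin, PARVA was the 1 gene called. It had 52.5, 78.8 and 77.2 CPM in Ctrl, RT and RT + shHDAC6, so both irradiated libraries were higher. Its ratio for RT against Ctrl, 0.59 (interval 0.51 to 0.67), was at the threshold, and the call was lost with library totals or upper quartile factors. ILK, the pseudokinase at the core, had log2 ratios of -0.12 in each of RT against Ctrl and RT + shHDAC6 against RT. Of ILK's exon length, 78.5% overlaps genes on the other strand, and the strand setting of the counting is not stated. LIMS1 (PINCH) had 72.3, 60.2 and 59.0 CPM, values that near-identical copies of the gene make uncertain, and PARVB had 38, 22 and 20 counts.

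Of the kinases and scaffolds that signal from adhesions, PTK2, which encodes FAK, had 236, 152 and 144 CPM in Ctrl, RT and RT + shHDAC6. Both irradiated libraries were low, with a fall of 0.63 in RT (interval -0.68 to -0.58), a call lost with DESeq2's factors, and of 0.71 in RT + shHDAC6 against Ctrl. BCAR1, the p130Cas scaffold phosphorylated by FAK and SRC, went the other way, at 128, 182 and 192 CPM. Its log2 ratio was 0.51 in RT and 0.59 in RT + shHDAC6 against Ctrl, of which the second was called and lost with library totals or upper quartile factors. SRC itself had 64.6, 66.6 and 70.2 CPM, PXN (paxillin) 458, 423 and 453, and TGFB1I1 (Hic-5) 30.3, 41.9 and 37.1, with no call. Between RT and RT + shHDAC6, none of these 5 genes was called, and their log2 ratios lay between -0.17 and 0.10.

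The tensins, which bind integrin tails and actin in mature adhesions, split. TNS1 had 474, 198 and 290 counts and TNS2 364, 158 and 243 counts, and RT was the lowest library for each. They fell in RT by 0.82 (interval -1.07 to -0.58) and 0.77 (interval -1.05 to -0.50). Against RT, their ratios in RT + shHDAC6 were 0.49 and 0.56, and that of TNS2 passed 1.5-fold with library totals or upper quartile factors. TNS3 had 1067, 828 and 418 counts, and its fall was in RT + shHDAC6, by 1.05 from RT (interval -1.22 to -0.88). TNS3 therefore made up 69.2% (66.9 to 71.5) of TNS1 and TNS3 reads in Ctrl, 80.7% (78.1 to 83.1) in RT and 59.0% (55.3 to 62.7) in RT + shHDAC6. The 4 endothelial markers summed to 25.1, 15.8 and 21.1 CPM, with median log2 ratios of -0.60 (RT to Ctrl) and 0.40 (RT + shHDAC6 to RT). In that order the medians were -0.57 and 0.25 for the 5 fibroblast markers and -0.43 and 0.26 for the leukocyte markers. For the epithelial and urothelial markers they were -0.47 and 0.235, and for the mesenchymal markers -0.22 and 0.07. Every list with tested markers thus shared these signs. All tested genes with a mean under 1000 counts had medians of -0.22 and 0.02. Those with 1000 counts or more, a depth that some of the markers reached, had medians of 0.11 and -0.02. All 4 endothelial and all 5 fibroblast markers had at least 10 counts in each library, and their part in the tensin values was not tested.

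Among the actin linkers, FLNA (ENSG00000196924, chromosome X, 154348524 to 154374634) had 2503, 4057 and 2924 CPM in Ctrl, RT and RT + shHDAC6. It was highest in RT, rising 1.62-fold (log2 ratio 0.70, interval 0.69 to 0.71; 0.48 and not called with library totals), and lay at -0.47 against RT in RT + shHDAC6, under 1.5-fold. VASP, which speeds actin filament growth, fell in RT by 0.69 (interval -0.76 to -0.62), from 117 CPM in Ctrl to 72.9 in RT, and had 79.7 in RT + shHDAC6. Its ratio of -0.56 between RT + shHDAC6 and Ctrl passed 1.5-fold with library totals or upper quartile factors. TES (ENSG00000135269, chromosome 7, 116210506 to 116258783), a LIM protein of adhesions and stress fibres, had 44.2, 38.2 and 20.1 CPM. RT + shHDAC6 was low, with a fall of 0.93 from RT (interval -1.06 to -0.79) and of 1.13 against Ctrl. Its partner ZYX (zyxin) had 147, 124 and 108 CPM and no call. VCL (vinculin) had 532, 719 and 593 CPM, with ratios of 0.44 and -0.28. The alpha-actinins crosslink actin, and ACTN4 took 56.9% (56.4 to 57.4) of their reads in Ctrl, 62.7% (62.2 to 63.2) in RT and 57.7% (57.2 to 58.2) in RT + shHDAC6, although neither ACTN1 nor ACTN4 was called in a comparison. Overlap with a gene on the other strand covers 14.2% of ACTN4's exon length and 11.1% of VCL's. Among the members above, such overlap covers 27.2% of PXN's and 26.4% of ITGA4's. On the same strand it covers 8.57% of BCAR1's and 5.77% of ITGA1's exon length, both of which had calls.

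CD151 (ENSG00000177697, chromosome 11, 832887 to 839831), the tetraspanin that binds ITGA3 and ITGA6 directly, had 191, 423 and 342 CPM in Ctrl, RT and RT + shHDAC6. Both irradiated libraries were high. Its log2 ratio for RT against Ctrl, 1.15 (interval 1.11 to 1.19), was the only one of the 42 over 2-fold in that comparison with TMM. With library totals it was 0.93, and ITGB4 (-1.195) and TNS1 (-1.04) were over 2-fold instead. In RT + shHDAC6 the ratio was -0.31 against RT and 0.84 against Ctrl.

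Outside the 42 genes, 130 other adhesion genes in 6 lists were read by the same rule, of which 128 could be tested between RT and Ctrl and 127 between RT + shHDAC6 and RT. In RT, 18 were called higher and 19 lower, with a median log2 ratio of -0.21, shares near those of all tested genes (12.2% and 13.0%). The tetraspanins and membrane partners of integrins had 7 of 12 genes higher and 0 lower (median 0.72). SLC3A2, which binds beta tails, had a ratio of 1.28, TSPAN4 of 1.20 and PLAUR, the urokinase receptor, of 1.23. Of 33 ligands, 10 were higher and 4 lower, led by the matricellular integrin ligands CCN1 (log2 ratio 1.89, 23992 to 65788 counts) and CCN2 (1.74, 2726 to 6734 counts). The laminin chain LAMB3 was higher by 1.32, whereas LAMA5 fell by 0.78. Of 34 kinase, phosphatase and GTPase genes, 0 were higher and 6 lower, among them PTPN12 (-0.84) and YES1 (-0.65). Of 25 LIM and actin genes, 1 was higher and 6 lower, among them FBLIM1 (-1.20 and 161 to 52 counts) and ENAH (-0.81). Of 18 regulators and adaptors, 0 were higher and 3 lower, among them KANK1 (-0.86), and of the 6 other integrin subunits tested none was called, at a median of -0.31.

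In RT + shHDAC6 against RT, 6 of the 127 were called higher and 10 lower, with a median of -0.01, again near the shares of all tested genes (5.09% and 6.58%). The ligands held 7 of the 10: CCN2 fell by 1.73 (interval -1.80 to -1.65), NID1 by 1.14, COL6A1 by 1.10, MFGE8 by 1.09, LTBP1 by 0.94 and CCN1 by 0.77, and VCAM1, with 29 and 13 counts, by 1.22. CCN1, CCN2, NID1, COL6A1 and MFGE8 were also among the ligands called higher in RT against Ctrl, a comparison that shares the RT library, and for MFGE8 that call (0.67) was lost with library totals (0.46). CD82, a tetraspanin, was the 1 gene of its list called, higher by 0.95 (779 to 1574 counts). CSRP1 (0.66), NCK1 (0.64) and FLNC (0.63, with 113 and 182 counts) were higher in the LIM, kinase and regulator lists. None of these lists was tested as a set, and their counts describe these libraries only.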

How the data were processed

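RNA from T24 cells was sequenced in 3 libraries, 1 per condition, and conditions were taken from the sample labels. The deposited values are whole-number read counts per gene, with no normalisation; the authors had removed adaptors (cutadapt), mapped to GRCh38 (STAR) and assigned reads to GENCODE release 28 (featureCounts). The submitters' processing notes give STAR 2.6.1a, the paper names another version, and the library kit also differs between labels and paper. The strand setting and the treatment of reads that fit several genes are not given in the sources used here.

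Symbols and positions were taken from GENCODE release 44 (57754 of 58336 identifiers matched, without 45 copies of pseudoautosomal genes). The study called genes with NOISeq on TMM-scaled counts. TMM factors (edgeR 4.0.16, R 4.3.3) were kept, but NOISeq was not used, because without replicates its probability rests on simulated noise. edgeR and DESeq2 1.42.0 were used for scaling factors only, since the spread between replicates cannot be estimated with 1 library per condition. A gene with at least 10 counts in either library was called at 1.5-fold or more with a 95% Clopper-Pearson interval (scipy 1.17.1) that excluded 0, with counts of 0 set to 0.5. The call rule was also run on simulated counts that held counting error only. Those counts had no differences between cultures or library preparations, so the run cannot show how the calls stand against such differences. Levels between genes were compared per kilobase of merged exons.

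The members and lists were chosen with earlier results of these data known. Named genes are the 42 members, HDAC6 and, from 6 wider adhesion lists, at most the 6 called genes with the largest change per direction and comparison among genes whose higher library had 100 counts or more. A gene covered by this rule is not reported here. ITGAM, ITGAL, ITGAX and VCAM1 were named after their values were seen. Alternatives covered the scaling, the fold, the minimum count, the value given to zeros and the exon length. Promoter windows came from RefSeq (GRCh38.p14).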

Additional observations from a re-analysis of the deposited data

How the results depend on the processing

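Against 12, 10 and 12 members called in RT against Ctrl, RT + shHDAC6 against RT and RT + shHDAC6 against Ctrl, a 2-fold threshold gave 1, 6 and 4, and an interval excluding 0 at any fold gave 32, 33 and 35. Library totals moved the members' median log2 ratio from 0.09 to -0.13 in RT against Ctrl and from -0.07 to -0.20 in RT + shHDAC6 against Ctrl, which follows from the common shift of all genes. Across the scalings, 7, 6 and 6 members changed the sign of their ratio, none of them a called gene, and 8, 3 and 4 changed their call. Of 198 single ratios, 135 moved by more than counting error with library totals, 49 with DESeq2's factors, 45 with upper quartile factors and 0 with zeros set to 1. With a minimum of 100 counts, 38, 35 and 38 members could be tested and 12, 8 and 12 were called. With the longest transcript in place of merged exons, 51 pool shares moved and 3 did not. No paired analysis was possible because each condition has 1 library, and for the same reason no replicate could be left out. The depth leaves genes under about 100 counts, such as ITGB3, ITGA4, ITGB6 and PARVB, with wide intervals.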

Other observations

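In RT + shHDAC6 against Ctrl, 11 of 128 tested genes of the wider adhesion lists were called higher and 21 lower, with a median log2 ratio of -0.16. The rule called 11.3% of all tested genes higher and 13.8% lower. The tetraspanins and membrane partners had 6 of 12 genes higher and 0 lower. CD82 was higher by 1.40 (775 to 1574 counts), SLC3A2 by 1.27 and PLAUR by 1.19. Of the ligands, LAMB3 was higher by 1.15 and CCN1 by 1.12. The LIM and actin genes had 1 of 25 higher and 11 lower, among them PDLIM1 (-1.17, 1072 to 368 counts), ENAH (-0.88) and LPP (-0.77), which encode adaptors of stress fibres and adhesions. The kinase list had 0 of 34 higher and 5 lower, among them the Src-family kinase FYN (-1.26, interval -1.47 to -1.05, 786 to 254 counts) and the phosphatase PTPN12 (-0.95). The regulators had 0 of 18 higher and 3 lower.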
